A study of Zea mays with 16 samples.

Results

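In maize roots, 124 of 17621 probe sets (0.704%) gave a higher signal in the inbred line HKI1105 than in the inbred line V-372 in every group sampled. They were chosen by these same values. The lowest of the 4 HKI1105 group means had to lie at least 2 log2 units above the highest of the 4 V-372 group means, so the difference between the lines is a description of the choice and is given with no test. The same rule turned round, for probe sets higher in V-372, found 44 (0.250%). The 124 included a pyruvate decarboxylase, a beta-carotene hydroxylase, a histone and a cellulose synthase.

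Total root RNA of HKI1105, labelled tolerant to waterlogging, and V-372, labelled susceptible, was measured on the Maize Genome Array of Affymetrix. Pots of both lines were held under standing water, and roots were taken at day 28 after sowing before stress (control), at day 32 after 4 days of water (moderate stress), at day 35 after 7 days of water (severe stress) and at day 42 after drainage (recovery). The labels date the recovery roots to day 42, while the methods place the drainage itself on day 42 beside a stress of 7 days. The time between drainage and sampling is therefore not clear. Each of the 8 groups had 2 arrays, which the labels call biological replicates and the methods call technical replicates, so that p-values measure only the spread between these arrays. Both lines had their only unstressed roots on day 28, and effects of stage and of plant age cannot be told apart.

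Waterlogged soil loses its oxygen, and root cells then make ATP by glycolysis and fermentation, in which pyruvate decarboxylase turns pyruvate into acetaldehyde and alcohol dehydrogenase turns acetaldehyde into ethanol. A probe set is a group of short probes that read one stretch of a transcript, and several probe sets can read one gene. The probes of a line's transcript can bind less well where that line's sequence differs from the sequence on the array, so a level read by one probe set belongs to that stretch.

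All values are GCRMA values on the log2 scale, in which 1 unit is a factor of 2. The lowest value, 2.01, is the floor left by background correction, and a probe set within 1 unit of it is called near the floor here. Arrays of one group correlated at 0.996 to 0.999, and array medians lay between 6.92 and 7.18. The HKI1105 control group stood apart from the rest: the 24 probe sets for RNA added for labelling (dap, lys, phe and thr) were at a median of 2.33 above their own means there, against -1.01 to 0.11 in the other groups. In the HKI1105 control, 7 of 12 root markers were above the floor range, with a summary level (median) of 3.59, while 9 to 12 were above it in the other 7 groups, with medians of 5.66 to 12.14. Leaf markers, 26 in all, had medians of 6.71, 9.73, 9.35 and 5.20 in HKI1105 from control through moderate and severe stress to recovery, and 3.12, 8.06, 11.78 and 7.67 in V-372. Every change in HKI1105 given here is measured from this control group, and the part of these shifts in the changes was not tested.

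The gap between the lines, taken as the lowest HKI1105 group mean minus the highest V-372 group mean, was 2.04 to 9.08 with a median of 3.81. It was 4 or more in 58 members, 6 or more in 20 and 8 or more in 5. Averaged over the 4 groups, the members had a median of 8.68 in HKI1105 and of 2.77 in V-372. In all 124 members the lowest single HKI1105 array lay above the highest single V-372 array, as it did in 2.95% of the probe sets of the array, and the smallest such distance was 1.55; the rule makes this separation likely, and nothing is read from it. The members just inside the threshold had gaps of 2.04, 2.04 and 2.05, and the nearest probe sets outside it had gaps of 1.96, 1.98 and 1.99.

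**Figure D1:**
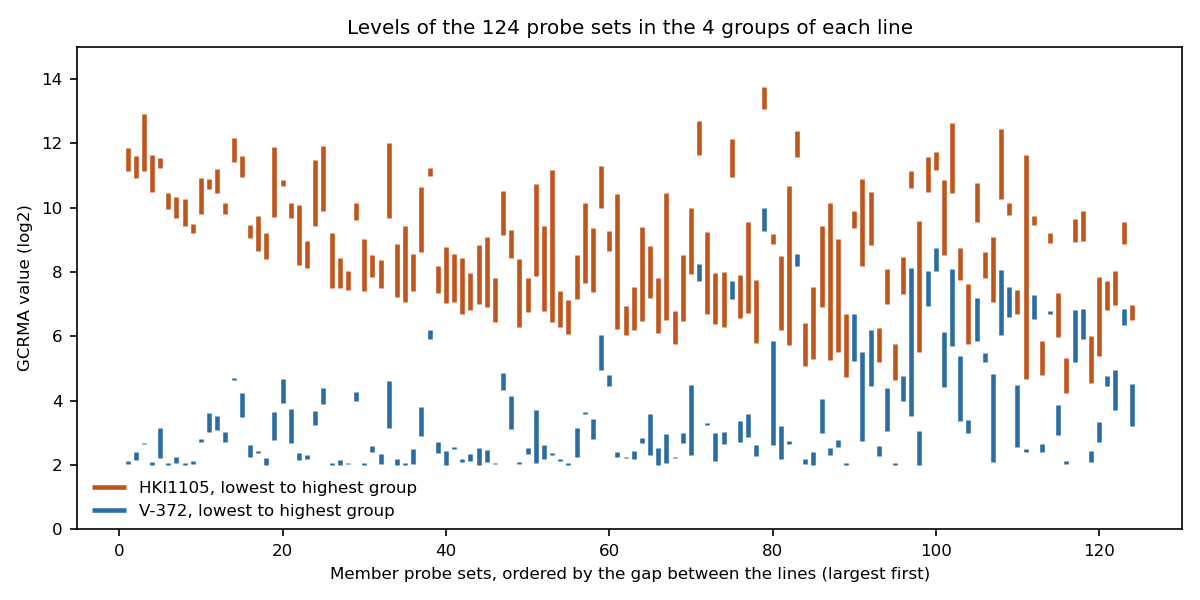
Range of the 4 group means (log2 GCRMA value, vertical axis) of each of the 124 members in HKI1105 (orange) and V-372 (blue), ordered by the gap from largest to smallest. The orange bars lie above the blue ones throughout, and V-372 stayed within 1 unit of the floor of 2.01 in all 4 groups for 61 members.

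Many members gave no reading above the floor range in V-372. The 4 V-372 group means stayed near the floor in 61 members (49.2%), against 28.6% of the probe sets of the array. The rule itself favours such members. At the other end, 42 members were above the floor range in all 8 groups, and 5 were above a level of 7 in every V-372 group. The brightest of these 5 was Zm.16959.3.S1_at, with HKI1105 arrays of 13.42 and 13.38 in the control, 13.43 and 13.68 at moderate stress, 13.68 and 13.81 at severe stress, and 13.45 and 12.71 at recovery. Its V-372 arrays were 9.24 and 9.33, 9.49 and 10.42, 9.98 and 9.59, and 9.51 and 9.21 at the same stages. Both lines therefore gave a clear signal for this probe set, and the lines did not overlap.

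The probe set with the widest gap, Zm.3284.2.A1_a_at, had HKI1105 arrays of 11.90 and 11.80 in the control, 11.05 and 11.24 at moderate stress, 11.24 and 11.26 at severe stress, and 11.64 and 11.65 at recovery. Its 8 V-372 arrays were between 2.01 and 2.08. The other members with a gap of 8 or more were Zm.14354.3.S1_a_at (8.58), Zm.889.2.S1_at (8.49), Zm.14354.2.A1_a_at (8.44) and Zm.17686.1.A1_at (8.13). In 4 of these 5 all V-372 arrays were at or close to the floor, while those of Zm.17686.1.A1_at lay between 2.14 and 3.87. The next 5 were Zm.13324.1.S1_at (7.93), Zm.18270.1.A1_at (7.46), Zm.17955.2.A1_a_at (7.41), Zm.16582.1.A1_at (7.13) and Zm.14765.1.A1_at (7.04). None of these 10 carries a gene name in the sources used here.

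Names were scarce over the whole set. A gene name was given for 5 members, a gene model or gene identifier alone for 7, and neither for 112. The gene models came from the study's lists of genes it called changed in these same arrays. Members named by a gene model were thus picked in part for their changes, and the size of those changes is only described. The suffixes a, s and x, by which Affymetrix marks probe sets whose probes also match other transcripts, were carried by 28 members (22.6%), against 12.6% of the array. The members came from 108 sequence clusters, the first number of a probe set's name, and 12 of these clusters held 28 members between them.

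Other probe sets of the same clusters give a description of each member's surroundings, with no test, since any that met the rule were members themselves. Probe sets of one cluster can read the same gene, its other forms or its close relatives. In 36 clusters with 46 members there were 112 further probe sets, of which 22 were at the floor in all 8 groups, 75 were above the floor range in all 8 and 15 were above it in some. Of the 15, 7 were more than 1 unit higher in HKI1105 on average and 0 more than 1 unit lower. Of the 75, 67 (89.3%) had line means within 1 unit of each other, close to the 88.0% among the 11038 probe sets of the array that were above the floor range in all 8 groups. The filter leaves out neighbours at the floor in V-372, and both the choice of members and this filter bear on how the neighbours compare with the members. The median difference of the 75, HKI1105 minus V-372, was -0.20. In 24 of the 26 clusters at least 1 such neighbour was within 1 unit. Probe sequences were not used here, and the part of sequence differences between the lines was not tested.

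**Figure D2:**
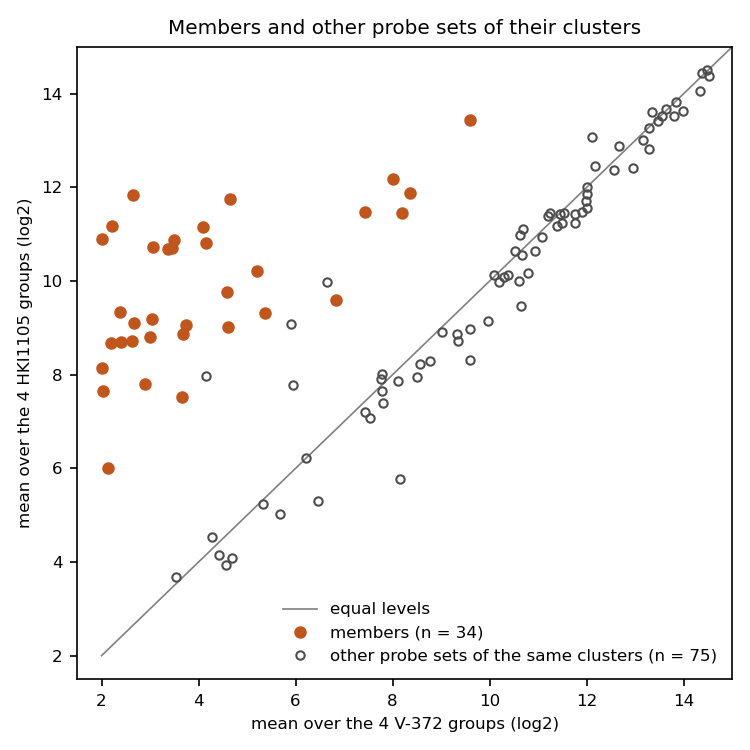
Mean level over the 4 HKI1105 groups (vertical axis, log2) against the mean over the 4 V-372 groups (horizontal axis, log2) for 34 members (filled) and for the 75 other probe sets of their 26 clusters that were above the floor range in all 8 groups (open). The open circles lie along the line of equal levels, 67 of 75 within 1 unit, and the members lie above it by their choice.

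Cluster Zm.14354 held a member and a non-member with strong signals. Its members Zm.14354.2.A1_a_at and Zm.14354.3.S1_a_at averaged 8.88 and 8.95 units higher in HKI1105. For Zm.14354.1.S1_at of the same cluster, the HKI1105 group means were 13.72, 13.70, 13.69 and 13.58 from control to recovery, and the V-372 means were 13.78, 13.65, 13.65 and 13.50. That probe set thus gave a strong and nearly equal signal in both lines. A further one, Zm.14354.2.A1_x_at, was 3.33 units higher in HKI1105, and Zm.14354.4.S1_at was 0.39 units lower.

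The next clusters with wide gaps had the same layout. Zm.889.2.S1_at was 9.18 units higher in HKI1105, while Zm.889.1.A1_s_at averaged 0.29 units lower in HKI1105, with group means between 13.18 and 14.14 in the 2 lines. In cluster Zm.16049 the members Zm.16049.1.S1_at and Zm.16049.1.S1_x_at were higher in HKI1105 by 7.27 and 7.07 units, and Zm.16049.2.A1_at differed by -0.03. In cluster Zm.15995 the members Zm.15995.2.A1_at and Zm.15995.2.A1_x_at differed by 7.30 and 6.68 units and Zm.15995.1.A1_a_at by -0.20. Cluster Zm.3284, in contrast, had 3 members (differences of 9.43, 5.85 and 5.23) and 1 further probe set, Zm.3284.2.A1_at, which was near the floor in all 8 groups.

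Stage changes within a line were tested in limma with 1 mean per group over all 16 arrays, and a change is called at a Benjamini-Hochberg adjusted p under 0.05 over all 17734 probe sets. The 8 groups share 1 estimate of the spread for each probe set. For members near the floor in V-372 it takes in arrays with little or no spread. The SE and p-values of their HKI1105 changes can therefore be too small. The rule bounds these changes in part, because a member could not fall in HKI1105 to the V-372 level or rise in V-372 to the HKI1105 level. It also leaves out probe sets that were low in the HKI1105 control and rose later. Without that group the rule took 177 probe sets. Under moderate stress, 30 members were called above and 47 below the HKI1105 control (array background 26.5% and 27.5%), which are 24.2% and 37.9% of the members. At severe stress the numbers were 30 and 39 (background 27.1% and 23.2%) and at recovery 31 and 36 (background 26.8% and 21.2%). The shares that rose were near this background and the shares that fell were above it, but the background also counts probe sets at the floor, which cannot fall. Among the 11392 probe sets above the floor range in all 4 HKI1105 groups, as all 124 members were, 36.6% rose and 36.3% fell at moderate stress, 38.6% and 29.8% at severe stress, and 38.5% and 26.8% at recovery. Against these, the members' shares of 37.9%, 31.5% and 29.0% for falls were close, and their shares of 24.2%, 24.2% and 25.0% for rises were lower. The rule's need for a high HKI1105 control lowers the share of rises, so nothing is read from it. The median change of the members in HKI1105 was -0.30, -0.06 and -0.14 at the 3 stages, against 0 over all probe sets.

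V-372 showed fewer calls. In V-372, 5 members were called higher and 11 lower at moderate stress (background 14% and 19.1%), 8 and 12 at severe stress (background 17.5% and 31.7%), and 11 and 11 at recovery (background 23.1% and 23.4%). These shares were below the background. Of the 42 members above the floor range in all V-372 groups, 2 rose and 7 fell at moderate stress, 2 and 7 at severe stress, and 4 and 7 at recovery, where 18.9% and 27.1%, 22.0% and 45.9%, and 31.9% and 32.8% of the 11306 such probe sets of the array were called. Of the 61 members near the floor in V-372 at most 1 was called in each direction at any stage. Among the other 63 members, 4 rose and 10 fell at moderate stress, 7 and 11 at severe stress, and 10 and 11 at recovery. Over the 3 stages, 30 members in HKI1105 and 92 in V-372 had no call at all, and 22 rose and 24 fell at all 3 stages in HKI1105, against 3 and 3 in V-372. For HKI1105 these are 24.2% with no call, 17.7% that rose and 19.4% that fell throughout, where the probe sets of the array above the floor range had 11.6%, 23.9% and 18.3%. For V-372 the members' shares were 74.2% with no call and 2.42% each that rose and fell throughout, where all probe sets had 36.9%, 5.73% and 10.3%. The 42 members above the floor range in V-372 had 26 with no call (61.9%), against 13.5% of such probe sets. The rule also kept their V-372 levels at least 2 units below HKI1105. The median SD within groups was 0.10 for all members and 0.04 over all probe sets, which include those at the floor. A wider spread gives fewer calls at the same change, and its part in these shares was not tested.

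**Figure D3:**
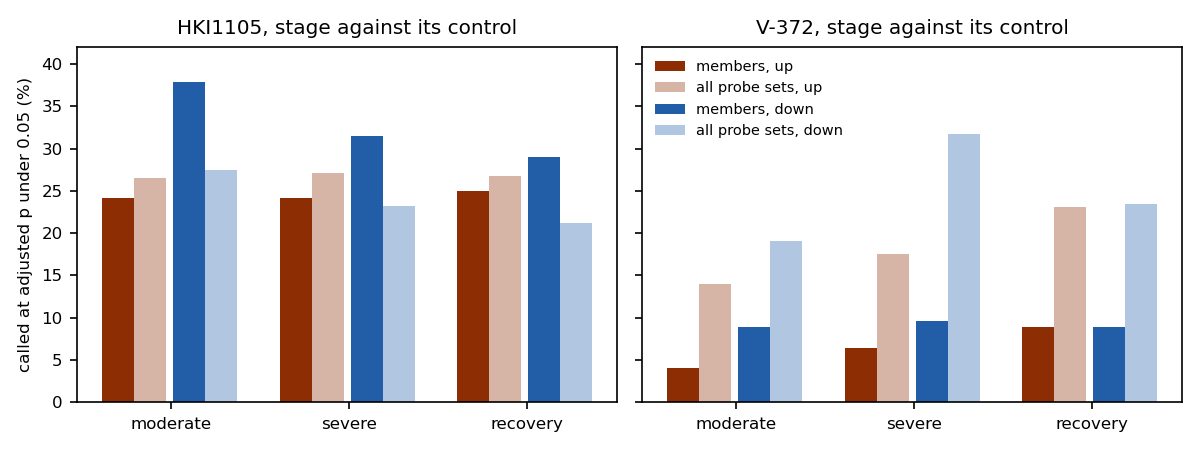
Share of the 124 members (solid bars) and of all 17734 probe sets (pale bars) called higher (up) or lower (down) than the control of the same line at each later stage, in percent at adjusted p under 0.05. In HKI1105 the members called down reached 37.9% at moderate stress against 27.5% of the array (36.3% of the probe sets above the floor range in HKI1105), and in V-372 the solid bars are below the pale ones throughout.

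A direct test of the difference in response, the HKI1105 change minus the V-372 change in the same fit, gave 28 members with a higher and 37 with a lower change in HKI1105 at moderate stress (background 25.1% and 23.6%). The numbers were 30 and 33 at severe stress (background 32.4% and 22.6%) and 28 and 29 at recovery (background 24.8% and 23.1%).

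Large changes were fewer. At the thresholds of the methods, p of 0.001 or less and a change of 5 times or more, HKI1105 had 8 members higher and 5 lower in moderate stress (background 5.92% and 4.35%), 6 and 0 in severe stress (4.02% and 3.04%) and 8 and 0 in recovery (3.16% and 2.24%). V-372 had 1 and 0 in moderate stress (2.36% and 0.801%), 2 and 1 in severe stress (5.78% and 3.19%) and 1 and 1 in recovery (2.93% and 3.67%). The difference in response passed these thresholds in 6 and 4 members (5.7% and 4.78%), 8 and 1 (7.03% and 7.43%) and 9 and 0 (5.54% and 3.94%). The counts of 0 are from limma, and at an unadjusted p under 0.05 with no fold minimum 41 and 40 members were lower in HKI1105 in severe stress and recovery, 13 lower in V-372 in moderate stress, and 31 had a lower change in HKI1105 in recovery.

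With a minimum of 2 times beside adjusted p under 0.05, HKI1105 had 21 members higher and 27 lower in moderate stress (background 14.1% and 12.5%), 23 and 22 in severe stress (12.7% and 9.92%) and 21 and 23 in recovery (11.1% and 8.37%). V-372 had 3 and 7 (5.95% and 5.27%), 3 and 8 (10.5% and 13.2%) and 7 and 7 (9.5% and 10.4%). The difference in response gave 24 and 26 (14.9% and 13.3%), 25 and 19 (20.2% and 14.7%) and 18 and 18 (14.4% and 12.4%). This minimum was chosen after the values were seen.

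Levels moved less from stage to stage than between the lines, which the rule fixes in part. The 4 HKI1105 group means of a member spanned a median of 1.18 units and the 4 V-372 group means a median of 0.36. They were within 1 unit in 44 members in HKI1105 (35.5%) and in 99 in V-372 (79.8%), against 63.7% and 61.7% of all probe sets. The 11392 probe sets of the array above the floor range in HKI1105 spanned a median of 0.93 there, and 53.7% were within 1 unit, so that the members moved somewhat more. For the 42 members above the floor range in V-372 the median span was 0.71, against 0.999 over the 11306 such probe sets. Without the HKI1105 control group the HKI1105 span had a median of 0.69, and 80 members were within 1 unit. Leaving out a group can only narrow or keep a span, and the same values were not computed for the array. The HKI1105 control was the highest HKI1105 group in 52 members (41.9%), against 31.0% of the probe sets of the array that were above the floor range in all 4 HKI1105 groups. The rule leaves out probe sets with a low HKI1105 control, which bears on this share.

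Of the members with a name, pdc2 is the one with a known part in the response to low oxygen, since pyruvate decarboxylase opens ethanol fermentation. Its probe set Zm.10317.1.S1_at had HKI1105 arrays of 8.94 and 8.65 in the control, 6.91 and 7.61 at moderate stress, 7.22 and 6.88 at severe stress, and 7.99 and 8.16 at recovery. The V-372 arrays were 2.23 and 2.01, 2.31 and 2.31, 2.01 and 2.01, and 2.39 and 2.39, all near the floor. In HKI1105 the level was highest in the control, and the arrays of the control did not overlap those of any other stage. It fell by 1.53 ± 0.21 (SE, n = 2 arrays per group; limma, adjusted p = 0.000229) after 4 days of water, by 1.74 ± 0.21 (adjusted p = 0.000122) after 7 days and by 0.72 ± 0.21 (adjusted p = 0.0215) once drained. The last call is lost without 1 array of the HKI1105 control or recovery group (replicate 1 of each; adjusted p = 0.125 and 0.112) and in a fit on the HKI1105 arrays alone (adjusted p = 0.122).

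The annotation gives pdc2 to 3 further probe sets, all of cluster Zm.14518, and these did not show the difference between the lines. Zm.14518.1.S1_at had HKI1105 arrays of 10.75 and 10.65 in the control, 8.56 and 8.93 at moderate stress, 9.16 and 9.01 at severe stress, and 10.11 and 10.14 at recovery. In V-372 its arrays were 7.90 and 8.21, 12.71 and 12.71, 7.39 and 7.30, and 10.53 and 10.61. V-372 was thus above HKI1105 at moderate stress and recovery and below it in the control and at severe stress, and the mean difference was -0.01. Under moderate stress, Zm.14518.1.S1_at fell by 1.96 ± 0.13 in HKI1105 (limma, adjusted p = 1.43e-06), as the member probe set did, whereas it rose by 4.66 ± 0.13 in V-372 (adjusted p = 1.78e-08).

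Zm.14518.1.S1_s_at, the second of them, rose by 6.78 ± 0.16 in V-372 at moderate stress (limma, adjusted p = 7.22e-09), to arrays of 10.58 and 10.57 against 3.88 and 3.72 in the V-372 control. In HKI1105 its change at moderate stress was 0.15 ± 0.16 (adjusted p = 0.537). The last, Zm.14518.1.A1_at, was at the floor on all 16 arrays. The Zm.14518.1.S1_at and Zm.14518.1.S1_s_at probe sets changed in the same directions in V-372 (4.66, -0.71 and 2.52, and 6.78, -0.88 and 3.27), with the larger rise at moderate stress in the latter. Their HKI1105 changes were -1.96, -1.62 and -0.58, and 0.15, -1.12 and 0.32. The member stayed near the floor in V-372. Whether Zm.10317 and Zm.14518 read the same transcript cannot be told from the files.

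**Figure D4:**
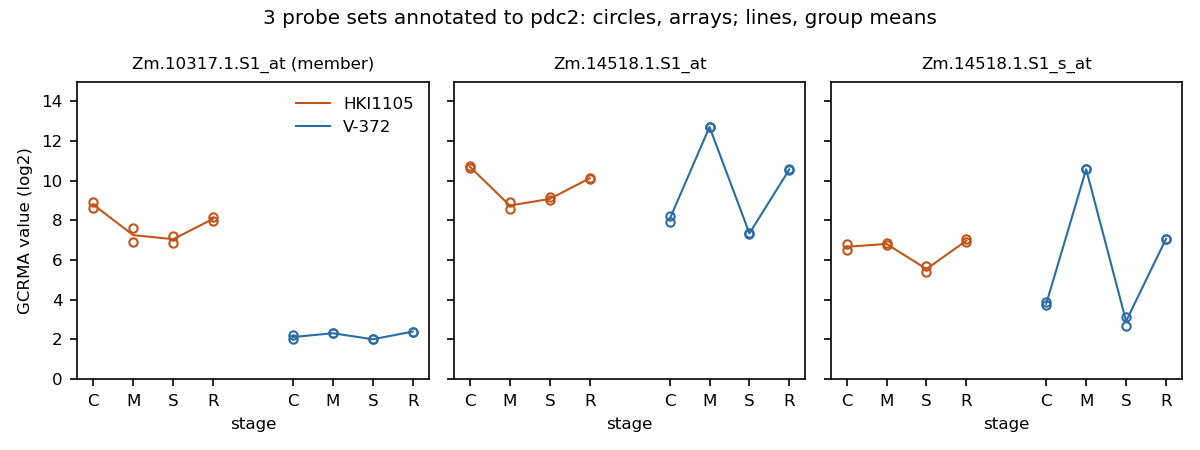
Levels (log2 GCRMA value, vertical axis) of 3 probe sets annotated to pdc2 in HKI1105 (orange) and V-372 (blue) at control (C), moderate stress (M), severe stress (S) and recovery (R); circles are arrays and lines join the 2-array means. The member is near the floor in V-372, while the other probe sets reach 12.71 and 10.58 in V-372 at moderate stress.

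Among genes of low oxygen response and fermentation, 23 probe sets were on the list (pyruvate decarboxylases, alcohol dehydrogenases, glycolytic enzymes and a haemoglobin), and pdc2 Zm.10317.1.S1_at was its only member. Of the 22 others, 18 had line means within 1 unit, 2 were more than 1 unit higher and 2 more than 1 unit lower in HKI1105. HKI1105 had 9 of the 23 that rose and 5 that fell in moderate stress (39.1% and 21.7%, array background 26.5% and 27.5%), 11 and 5 in severe stress (background 27.1% and 23.2%), and 10 and 5 in recovery (background 26.8% and 21.2%). V-372 had 13 and 2 (background 14.0% and 19.1%), 3 and 12 (17.5% and 31.7%), and 6 and 7 (23.1% and 23.4%) at these stages. These backgrounds, here and for the lists below, also count probe sets at the floor. Of those above the floor range in all HKI1105 groups, 36.6%, 38.6% and 38.5% rose and 36.3%, 29.8% and 26.8% fell in HKI1105. The like shares in V-372 were 18.9%, 22.0% and 31.9% for rises and 27.1%, 45.9% and 32.8% for falls. The median change of the list was 0.10, 0.06 and 0.08 for HKI1105 and 0.25, -0.25 and -0.03 for V-372, beside 0 over all probe sets.

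CesA-4, a catalytic subunit of the complex that makes cellulose of the cell wall, was the one named gene with a clear signal in both lines. It entered with both of its probe sets, whose probes share a transcript and are not independent. Zm.520.1.S1_at had HKI1105 arrays of 11.92 and 11.72 in the control, 12.36 and 12.88 at moderate stress, 12.02 and 11.98 at severe stress, and 10.15 and 10.78 at recovery. Its V-372 arrays were 8.01 and 8.08, 6.75 and 7.09, 5.77 and 5.65, and 5.75 and 5.97. In V-372 it was highest in the control, with no overlap with later stages, while in HKI1105 it was lowest at recovery.

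In V-372, CesA-4 at Zm.520.1.S1_at fell by 1.13 ± 0.23 in moderate stress (limma, adjusted p = 0.00481), by 2.34 ± 0.23 in severe stress (adjusted p = 2.51e-05) and by 2.19 ± 0.23 in recovery (adjusted p = 4.79e-05). The HKI1105 level rose by 0.80 ± 0.23 in moderate stress (adjusted p = 0.0151), was 0.18 ± 0.23 above the control in severe stress (adjusted p = 0.648) and fell by 1.35 ± 0.23 in recovery (adjusted p = 0.00104). The rise at moderate stress is lost when the arrays are quantile normalized (adjusted p = 0.0589), fitted by line (adjusted p = 0.0789), or read without HKI1105 control replicate 2 (0.70, adjusted p = 0.0817) or HKI1105 moderate replicate 2 (0.54, adjusted p = 0.113). The HKI1105 change exceeded the V-372 change by 1.93 ± 0.33 in moderate stress (adjusted p = 0.000977) and 2.52 ± 0.33 in severe stress (adjusted p = 0.000144). The probe set Zm.520.1.S1_x_at gave HKI1105 changes of 0.81, 0.26 and -1.34, against V-372 changes of -0.54, -1.97 and -1.40. Its HKI1105 change of 0.81 loses its call without any 1 of 10 arrays, under quantile normalization (adjusted p = 0.114) and in the fit by line (adjusted p = 0.0789), and is 0.50 without HKI1105 control replicate 2 (adjusted p = 0.256).

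Of the 12 other probe sets for cellulose synthases and relatives, 11 had line means within 1 unit, and CesA-3 was 1.19 units higher in HKI1105. Of all 14 on the list, HKI1105 had 13 that rose and 1 that fell in moderate stress (array background 26.5% and 27.5%), 9 and 1 in severe stress (27.1% and 23.2%), and 2 and 7 in recovery (26.8% and 21.2%). For V-372, 13, 14 and 13 fell at these stages (background 19.1%, 31.7% and 23.4%) and 0 rose at each of them in limma, also at an unadjusted p under 0.05. The list's median change was 1.12, 0.45 and -0.28 for HKI1105, against -0.91, -2.16 and -1.57 for V-372.

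The histone gene his2b5, which encodes a core protein of the nucleosome, was a member through Zm.14497.1.A1_at. Its HKI1105 arrays were 6.29 and 5.17 in the control, 10.47 and 10.91 at moderate stress, 10.01 and 9.96 at severe stress, and 10.10 and 9.996 at recovery. Its V-372 arrays lay between 2.53 and 2.87, near the floor. It was thus low in the HKI1105 control and high on the 6 later HKI1105 arrays. The rise above the HKI1105 control was 4.96 ± 0.31 in moderate stress (limma, adjusted p = 1.15e-06), 4.25 ± 0.31 in severe stress (adjusted p = 4.35e-06) and 4.31 ± 0.31 in recovery (adjusted p = 4.98e-06).

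Zm.14497 is a large cluster of histone probe sets, whose genes are close copies and can share probes. The others of the cluster differed by -0.82 to 0.29 between the lines, and several of them were also lowest in the HKI1105 control. Zm.14497.13.A1_a_at, for example, had HKI1105 group means of 8.88, 12.34, 12.13 and 11.58 and V-372 group means of 12.01, 12.06, 11.68 and 10.19. Of the 28 probe sets on the list of histones, replication and cell cycle, HKI1105 had 20 that rose and 1 that fell in moderate stress (71.4% and 3.57%, array background 26.5% and 27.5%), 19 and 0 in severe stress (background 27.1% and 23.2%; limma, 0 also fell at an unadjusted p under 0.05), and 18 and 2 in recovery (background 26.8% and 21.2%). V-372 had 4 and 3 (background 14.0% and 19.1%), 5 and 11 (17.5% and 31.7%), and 2 and 13 (23.1% and 23.4%). All 27 non-members of this list had line means within 1 unit.

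The carotenoid gene crtRB1 encodes a beta-carotene hydroxylase, which turns beta-carotene into xanthophylls. Its HKI1105 arrays were 5.44 and 7.00 in the control, 8.42 and 8.49 at moderate stress, 9.80 and 9.51 at severe stress, and 10.45 and 10.43 at recovery, and its V-372 arrays lay between 2.22 and 2.46. The HKI1105 level was thus higher at each later stage, while the 2 control arrays stood 1.56 apart on the log2 scale. Its rise was 2.23 ± 0.39 in moderate stress (limma, adjusted p = 0.00103), 3.43 ± 0.39 in severe stress (adjusted p = 7.64e-05) and 4.22 ± 0.39 in recovery (adjusted p = 2.39e-05). Without HKI1105 control replicate 1 the first of these was 1.45 (adjusted p = 4.54e-05). No other probe set of crtRB1 was found in the annotation.

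LOC542630, a gene with an identifier and no name, dipped at one stage. Its HKI1105 arrays were 9.07 and 9.22 in the control, 5.06 and 5.47 at moderate stress, 10.16 and 10.05 at severe stress, and 10.09 and 10.18 at recovery, against 2.27 to 2.61 in V-372. It fell by 3.88 ± 0.16 at moderate stress (limma, adjusted p = 5.93e-08), the largest fall among the 124 members in HKI1105 at that stage, and was 0.96 ± 0.16 higher than the control at severe stress (adjusted p = 0.0007). The gene model GRMZM2G470882 had a similar dip. Its HKI1105 arrays were 9.43 and 9.44, 6.65 and 6.90, 9.40 and 9.46, and 8.35 and 8.40, against 2.05 to 2.85 in V-372, and it fell by 2.66 ± 0.26 at moderate stress (adjusted p = 2.28e-05).

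GRMZM2G117281 had the largest rise of all members. Its HKI1105 arrays were 5.09 and 4.28 in the control, 11.61 and 11.65 at moderate stress, 10.30 and 10.32 at severe stress, and 8.13 and 8.24 at recovery, and its V-372 arrays lay between 2.40 and 2.50. It rose by 6.95 ± 0.20 (limma, adjusted p = 7.54e-09), 5.63 ± 0.20 (adjusted p = 4.4e-08) and 3.50 ± 0.20 (adjusted p = 1.14e-06) at the 3 stages. Another probe set of the same gene model, Zm.4164.3.A1_a_at, was at the floor in both lines except at moderate stress, where HKI1105 arrays read 4.53 and 5.35 and V-372 arrays 8.01 and 7.83. Its rise there was 2.94 ± 0.21 for HKI1105 (adjusted p = 2.29e-06) and 5.91 ± 0.21 for V-372 (adjusted p = 7.97e-08), so that here V-372 was higher.

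GRMZM2G074017 gave a like contrast between its probe sets. The member, Zm.1444.2.A1_at, had HKI1105 arrays of 6.51 and 6.51 in the control, 10.51 and 10.39 at moderate stress, 8.67 and 8.53 at severe stress, and 9.23 and 9.36 at recovery, with V-372 arrays of 2.05 to 3.04. Its other probe set, Zm.1444.1.A1_at, was bright in both lines and 0.63 units lower in HKI1105 on average. Under moderate stress that probe set rose by 1.98 ± 0.13 for HKI1105 and 3.13 ± 0.13 for V-372 (limma, adjusted p = 1.52e-06 and 2.4e-07), where the member rose by 3.94 ± 0.11 for HKI1105 (adjusted p = 4.87e-09) and 0.77 ± 0.11 for V-372 (adjusted p = 0.000493). Zm.1444.2.A1_x_at, a non-member of the same cluster, rose at that stage by 2.75 ± 0.16 for HKI1105 and 2.15 ± 0.16 for V-372 (adjusted p = 6.13e-07 and 8.69e-06).

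The remaining gene models rose in HKI1105 at all 3 stages, which their source in lists of changed genes makes likely. GRMZM2G109448 had HKI1105 arrays of 7.26 and 5.63, 11.10 and 11.26, 10.71 and 10.95, and 10.06 and 9.98, against 2.31 on all V-372 arrays, and rose by 4.74 ± 0.40 at moderate stress (limma, adjusted p = 8.24e-06). Its SD was 1.15 in the HKI1105 control and 0 in each V-372 group, so this SE understates the spread of the control. GRMZM2G403121 had HKI1105 means of 5.52, 7.47, 8.69 and 9.57, highest at recovery, where it was 4.05 ± 0.10 above its control (adjusted p = 4.71e-09). GRMZM2G096680 rose in both lines under moderate stress, by 2.86 ± 0.23 for HKI1105 and 1.61 ± 0.23 for V-372 (adjusted p = 5.75e-06 and 0.000627).

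**Figure D5:**
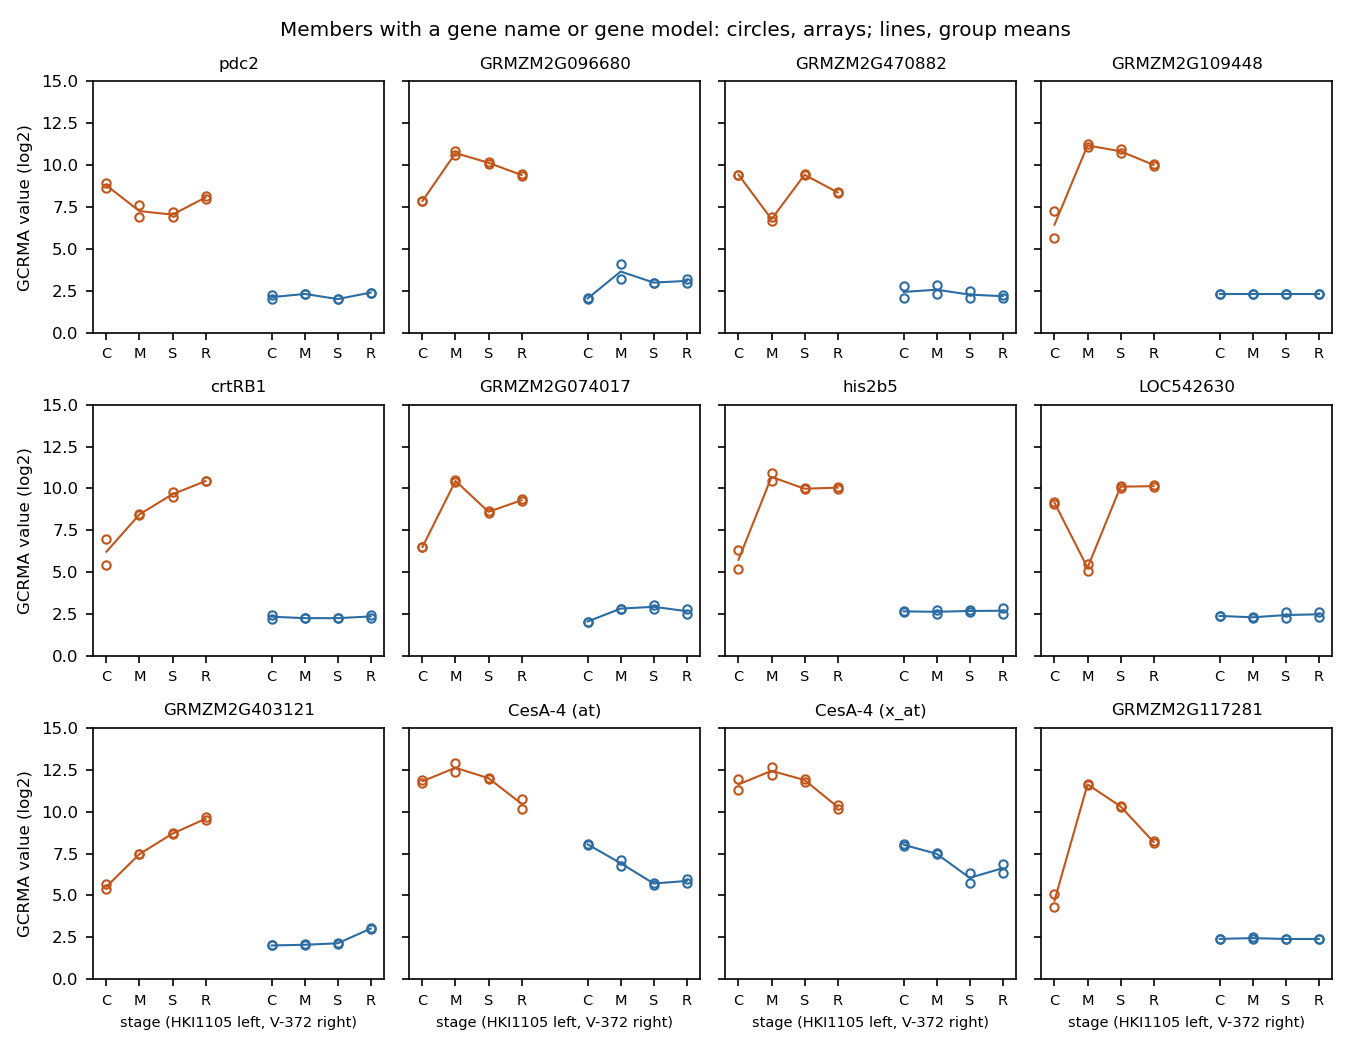
Levels (log2 GCRMA value, vertical axis) of the 12 members with a gene name or gene model at control (C), moderate stress (M), severe stress (S) and recovery (R), HKI1105 in orange at the left and V-372 in blue at the right of each panel; circles are arrays and lines join group means. V-372 is flat near the floor for most, the 2 CesA-4 probe sets fall in V-372 from levels near 8, and pdc2 is highest in the HKI1105 control.

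The members that moved most in V-372 had no gene name. Zm.4164.2.A1_at rose by 3.20 ± 0.34 at severe stress (limma, adjusted p = 3.89e-05), to arrays of 6.06 and 5.58 against 2.62 and 2.62 in the V-372 control, the stage at which the leaf markers were also highest in V-372. The part of that shift in this rise was not tested. Zm.188.1.S1_s_at fell by 3.23 ± 0.13 at recovery in V-372 (adjusted p = 1.11e-07) after a rise of 1.33 ± 0.13 at moderate stress (adjusted p = 5.87e-05), while its HKI1105 arrays stayed between 10.56 and 11.17. Zm.3384.1.A1_x_at, of the same cluster as GRMZM2G096680, rose in V-372 by 2.73 ± 0.19, 2.60 ± 0.19 and 2.51 ± 0.19 at the 3 stages (adjusted p = 6.21e-06, 3.37e-06 and 5.79e-06).

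The other 19 gene lists held no member. They cover aquaporins, glutathione S-transferases, heat shock proteins, expansins, lignin, benzoxazinoid, defence, ethylene, auxin and cytokinin genes, transcription factors and light harvesting among others. With 112 members unnamed, these counts speak only for the annotated probe sets.

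The named genes outside the set whose profile over the 8 group means was most like the members' mean were cfm6 (Pearson r = 0.973), nfc101 (r = 0.943), m5 (r = 0.927), ada2 (r = 0.926) and hda113 (r = 0.917). The 8 groups fall into 2 lines, so that r here mainly reflects the difference between the lines. For cfm6 the HKI1105 group means were 9.19, 9.51, 9.99 and 9.97 and the V-372 group means 6.59, 6.60, 7.39 and 6.38, a gap of 1.80. The gap was 1.77 for m5 and between 0.34 and 0.65 for nfc101, ada2 and hda113, the last of which encodes a histone deacetylase.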

How the data were processed

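The deposited table holds log2 values. To make it, the authors ran GCRMA, a method of background correction, normalization across arrays and probe summary; its version is not given in the sources used here. It covers 17734 probe sets, of which 113 are Affymetrix controls, on 16 arrays, and no further scaling was applied. Groups came from the sample labels. Members were found by the stated rule among the 17621 other probe sets, and the members, gene lists and tests were chosen with earlier results of these data known. Names came from the platform annotation, which can be old (1453 probe sets, 1377 matched to a RefSeq gene), and from the study's probe tables. The gene models in those tables are of genes the study called changed. One search term of the histone list was narrowed after its matches were seen. One mean per group was fitted with limma 3.58.1 in R 4.3.3 and adjusted by Benjamini-Hochberg over all probe sets. Errors after ± are SE. Genes named are all annotated members, the 10 widest gaps, the nearest to the threshold, other probe sets of the same gene, the named members that changed most and the 5 most alike named genes; the other probe sets described were chosen after their values were seen. The number of arrays limits the precision. Alternatives tried were other thresholds, arrays or groups in the rule, normalization, centring, a filter on dim probe sets, a trended and robust variance, a replicate block, fits by line, other call rules and leaving out each array. The code was tested on simulated data.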

Additional observations from a re-analysis of the deposited data

Results flagged for a closer look

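The change from the control differed between the lines (interaction in limma, adjusted p under 0.05) in 65 members at moderate stress, 63 at severe stress and 57 at recovery; the array background was 25.1% higher and 23.6% lower in HKI1105, 32.4% and 22.6%, and 24.8% and 23.1%. These values are the change in HKI1105 minus the change in V-372 and rest in large part on HKI1105, since V-372 was near the floor for 61 members. The difference was -1.73, -1.63 and -0.99 log2 units for the pdc2 member at the 3 later stages (the last loses its call without any 1 of 5 arrays, HKI1105 control replicate 1, HKI1105 recovery replicate 1, V-372 control replicate 2, V-372 recovery replicate 1 and V-372 recovery replicate 2, with adjusted p of 0.0583 to 0.0789), and 4.98, 4.22 and 4.28 for his2b5. Its size for pdc2 varied with the probe set. The difference was -6.61, -0.91 and -3.10 for Zm.14518.1.S1_at, and -6.63, -0.24 (limma, adjusted p = 0.450) and -2.96 for Zm.14518.1.S1_s_at. For crtRB1 the difference was 2.32, 3.52 and 4.20 (the first 1.54 without HKI1105 control replicate 1), and for LOC542630 -3.80, 0.91 and 0.89. CesA-4 differed by 1.93 and 2.52 at moderate and severe stress at Zm.520.1.S1_at and by 1.36 and 2.24 at Zm.520.1.S1_x_at, where the first loses its call without replicate 2 of the HKI1105 control (1.05), HKI1105 moderate (1.11), V-372 control (1.30) or V-372 moderate (1.32) group (adjusted p of 0.0606 to 0.0758).

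Among the gene models, read by their member probe sets, GRMZM2G117281 differed by 6.90, 5.64 and 3.51 at the 3 stages, GRMZM2G109448 by 4.74, 4.38 and 3.57, GRMZM2G074017 by 3.17, 1.22 and 2.17, and GRMZM2G403121 by 1.90, 3.04 and 3.04. Gene models were given only to genes in the study's lists of changed genes. For GRMZM2G117281 and GRMZM2G074017, another probe set annotated to the same gene model went the other way. Several unannotated neighbours in cluster Zm.4164 went with the GRMZM2G117281 member at moderate stress. Zm.4164.3.A1_a_at of GRMZM2G117281 differed by -2.98 at moderate stress (limma, adjusted p = 3.15e-05). Zm.1444.1.A1_at of GRMZM2G074017 differed by -1.15, -2.46 and -1.40 at the 3 stages (adjusted p = 0.000729, 3.96e-06 and 0.000224). GRMZM2G096680 differed by 1.25 (0.81 without V-372 moderate replicate 2) at moderate and 1.33 at severe stress, and GRMZM2G470882 by -2.79 at moderate stress. Each of these differences uses both control groups, of which that of HKI1105 stood apart in added RNA and root markers.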

How the results depend on the processing

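The set held 122 to 126 members when any 1 array was left out, 218 at a threshold of 1, 83 at 3, 103 on single arrays and 189 without both control groups. After the data were seen, the rule was also applied without the HKI1105 control (177) and without V-372 severe stress (132); all 124 remained in both. Counts of calls mostly kept within 1.5 times of those reported. Exceptions were 19 members lower in V-372 at severe stress under quantile normalization and 7 higher in V-372 at recovery in the fit by line. Leaving out 1 array gave 7 to 13 members higher and 6 to 13 lower in V-372 at recovery (lowest without V-372 control replicate 1 and without V-372 recovery replicate 1), and 19 to 31 with a lower change in HKI1105 at recovery (lowest without V-372 recovery replicate 2).

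At the methods' thresholds (p of 0.001 or less, 5 times or more), the members higher and lower in limma were 8 and 5, 6 and 0, and 8 and 0 in HKI1105 at moderate stress, severe stress and recovery, and 1 and 0, 2 and 1, and 1 and 1 in V-372; interactions were 6 and 4, 8 and 1, and 9 and 0. With a minimum of 2 times, chosen after the data were seen, 27, 22 and 23 were lower in HKI1105, 3 higher and 7 lower in V-372 at moderate stress, 3 higher at severe stress and 7 and 7 at recovery, 19 had a lower change in HKI1105 at severe stress, and 18 a higher and 18 a lower one at recovery. In the replicate block, 29 members were higher and 45 lower in HKI1105 at moderate stress; replicate numbers did not pair the arrays (28 pairs of groups, 3 with a correlation over 0.1, range -0.18 to 0.23), and no count left 1.5 times. Of the changes of named members, leaving out 1 array kept 1699, lost 23 and gained 6 calls or absences of calls, and the other alternatives 602, 6 and 4; none turned direction.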
